A study of Mus musculus with 5 samples.

Results

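Matrix metalloproteinases (MMPs) and their tissue inhibitors (TIMPs) were followed in the RNA of mouse bone marrow–derived macrophages (BMDMs) that shared medium with cancer cells. The members were 8 MMP genes (Mmp2, Mmp8, Mmp9, Mmp12, Mmp13, Mmp14, Mmp19, and Mmp25) and 2 TIMP genes (Timp1 and Timp2), found by symbol. They are 10 of the 17058 genes listed in the 5 libraries. All macrophages came from the marrow of Balb/c mice of 6 to 12 weeks, were grown for 4 to 5 days in medium with 10 ng/mL M-CSF, and then spent 48 hours across a porous membrane from 4T1 cells, a mouse mammary carcinoma line. The comparison asked how the macrophages differ when the cancer cells lack the sheddase ADAM17: 2 libraries came from coculture with WT 4T1 cells and 3 from coculture with Adam17-/- 4T1 cells, all 3 from the line labeled ADAM17 knock-out 2.8. Adam17 was deleted in the cancer cells, not in the macrophages whose RNA was read, and other features of the knock-out line cannot be told apart from the loss of the gene. The labels call the libraries repeats without saying whether they came from separate mice or cultures, so the p-values measure the spread between these libraries, which may be technical.

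MMPs are zinc-dependent endopeptidases that cut collagens, elastin, proteoglycans, and many cell surface and soluble proteins. Most are made as inactive proenzymes, and a propeptide must be removed before they can act. TIMPs bind the active site of the enzymes and block it, so that matrix turnover depends on enzyme, activator, and inhibitor together. Macrophages are a main source of several MMPs in inflamed tissue and in tumors. A transcript level says nothing of how much proenzyme is activated.

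Promoter stretches are shown for Mmp25 and Mmp14, which moved in opposite directions, and for Mmp12 and Mmp13, neighbors on chromosome 9. Each run is the 120 bases directly upstream of the RefSeq start on the strand of the gene, GRCm38.p6, with motif matches in capitals.
Mmp25 (chr17:23645270-23645389, minus strand): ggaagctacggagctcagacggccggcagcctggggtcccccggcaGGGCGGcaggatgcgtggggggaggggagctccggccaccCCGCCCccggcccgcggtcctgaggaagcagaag
Mmp14 (chr14:54431478-54431597, plus strand): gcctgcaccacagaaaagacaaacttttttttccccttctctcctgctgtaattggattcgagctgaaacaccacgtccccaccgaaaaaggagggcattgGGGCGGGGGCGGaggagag
Mmp12 (chr9:7347254-7347373, plus strand): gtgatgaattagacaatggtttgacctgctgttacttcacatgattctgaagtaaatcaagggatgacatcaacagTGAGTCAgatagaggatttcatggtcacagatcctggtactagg
Mmp13 (chr9:7272394-7272513, plus strand): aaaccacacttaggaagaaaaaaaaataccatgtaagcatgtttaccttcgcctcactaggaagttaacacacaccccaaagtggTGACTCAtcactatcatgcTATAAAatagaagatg
Of the Mmp25 run, 8 bases lie within a GENCODE exon of the gene. For Mmp12 the start shown is that of the transcript that held 98.0% to 98.5% of the gene's counts in every library. Of the 10 members, 7 had promoter windows in the RefSeq table, 8 windows in all, each from 250 bases before to 50 bases after a start. Mmp2, Mmp9, and Mmp19 had no entry.

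The windows of the members differed in 3 short motifs, each searched on both strands. The AP-1 motif TGANTCA was present in 2 of 8 windows, at position -44 of Mmp12 and position -35 of Mmp13, and in 7.81% of all 32851 windows of that length. The TATA motif TATAAA was present in 3 of 8, at -16 in Mmp13, -3 in Mmp8 (as its reverse complement TTTATA), and 5 in Mmp12, against 13.6% of all windows. The GC box GGGCGG was present in 4 of 8, and in 35.7% of all windows. It lay at -74 and -34 in Mmp25 (the latter as its reverse complement CCGCCC), at -19 and -13 in Mmp14, at -8 in Timp1 (also as CCGCCC), and at -37 in Timp2. For Timp2, 95 of the 120 bases before the start lie within a GENCODE exon of the gene, so that this window may not be its promoter. A match is a match of letters and not a site in use.

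The libraries held 14658694 to 20788373 expected counts, and 12576 genes passed edgeR's filter on low counts. Levels are given as CPM, counts divided by the TMM-scaled library total, and a count of 3 corresponds to 0.157 to 0.197 CPM, an uncertainty that covers counting error only. By chi-square per degree of freedom over genes, the WT libraries differed from each other by 25.7 and the Adam17-/- libraries by 5.22 to 6.32, all far above the value of 1 that sampling alone would give. Macrophage Adam17 itself stood at 198 and 199.6 CPM in the WT cocultures and at 152, 164, and 161 CPM in the Adam17-/- cocultures, and it fell by 0.32 on the log2 scale (SE 0.0779, adjusted p = 0.0129, edgeR).

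All 10 members passed the filter. With edgeR's quasi-likelihood test and Benjamini-Hochberg adjustment over all 12576 genes, 1 member was higher in the Adam17-/- cocultures at an adjusted p of 0.05 or less (Mmp25), 3 were lower (Mmp9, Mmp14, and Timp2), and 6 did not pass. Among all genes tested, 14.9% were higher and 16.8% lower by the same rule, 31.7% in all, so that 4 of 10 members is near the background. The values of the WT and Adam17-/- libraries did not overlap for the same 4 members, 1 higher and 3 lower, against 28.4% of all genes higher and 29.7% lower, 58.1% in all. The median log2 fold change of the members was -0.11, and that of all genes was 0.01. With a limit of 1 on the absolute log2 fold change as well, 3.36% of all genes were higher and 0.867% lower, and of the members Mmp25 passed.

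**Figure D1:**
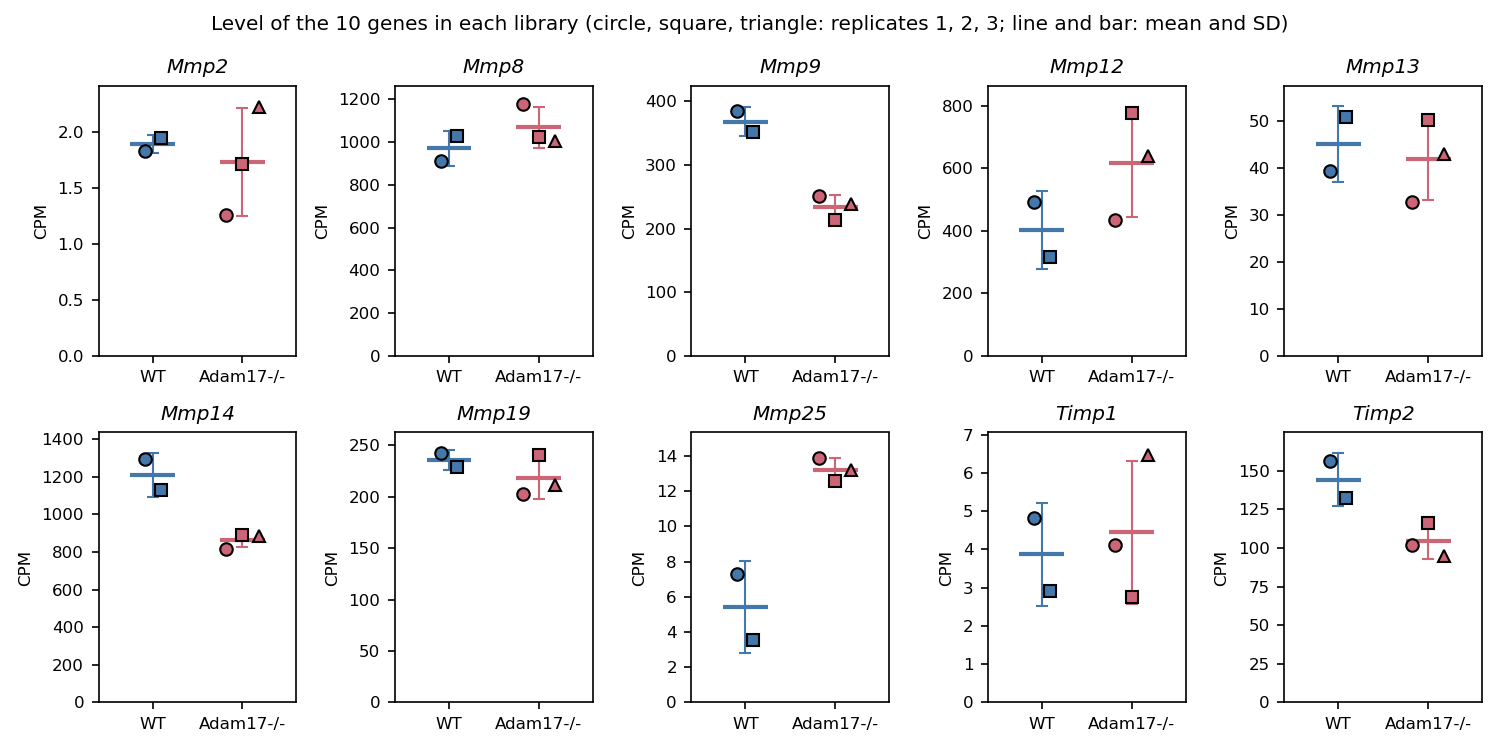
TMM-scaled CPM of each of the 10 genes on linear axes from 0, with WT and Adam17-/- 4T1 cocultures on the x axis, 1 point per library, the mean as a line, and the SD as a bar. Mmp9, Mmp14, and Timp2 are lower in each of the 3 Adam17-/- libraries than in either WT library, Mmp25 is higher, and the other 6 genes overlap.

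Mmp9 encodes gelatinase B, which cuts denatured collagen and basement membrane collagen. It lies on chromosome 2 from 164940326 to 164955850 on the plus strand and has 13 exons. Its level was 384 and 352 CPM in WT replicates 1 and 2 and 250.3, 213, and 238 CPM in Adam17-/- replicates 1, 2, and 3. Every Adam17-/- library was lower than both WT libraries, and the gap between the groups was wider than the range within either. The means were 368 ± 22.9 (SD, n = 2) and 234 ± 19.2 (SD, n = 3), and Mmp9 fell by 36.4% (log2 fold change -0.65, SE 0.0922, adjusted p = 0.00128, edgeR). In bulk RNA, fewer cells that express a gene and less of its RNA per cell cannot be told apart.

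Mmp14 encodes MT1-MMP, a membrane-anchored enzyme that cuts fibrillar collagen at the cell surface and removes the propeptide of pro-MMP2. It lies on chromosome 14 from 54431598 to 54442456 on the plus strand and has 10 exons. It stood at 1294 and 1128 CPM in the WT libraries and at 818, 892, and 883 CPM in the Adam17-/- libraries. The groups were apart, with the Adam17-/- libraries close to each other. The means of 1211 ± 118 (SD, n = 2) and 865 ± 40.3 (SD, n = 3) differed by -0.49 on the log2 scale (SE 0.0921, adjusted p = 0.00464, edgeR), so that Mmp14 fell by 28.6%.

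Timp2 encodes the inhibitor that joins MT1-MMP and pro-MMP2 on the cell surface, where it acts as an adaptor at low level and as an inhibitor when in excess. It lies on chromosome 11 from 118301061 to 118355411 on the minus strand, with 5 exons and the gene Cep295nl within its span on the same strand. It was at 157 and 132 CPM in the WT libraries and at 102, 117, and 94.6 CPM in the Adam17-/- libraries. All 3 were lower than both WT libraries, with the gap from WT replicate 2 to Adam17-/- replicate 2 smaller than the spread within either group. Timp2 fell by 0.47 on the log2 scale (SE 0.110, adjusted p = 0.0113, edgeR), from 144 ± 17.2 (SD, n = 2) to 104 ± 11.2 CPM (SD, n = 3). The change no longer passed without Adam17-/- replicate 1 (-0.43, adjusted p = 0.0609) or replicate 3 (-0.38, adjusted p = 0.0572), and it passed in 8 of 13 alternative fits.

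Mmp25 encodes MT6-MMP, also called leukolysin, which is held to the membrane by a glycolipid anchor and is best known from neutrophils. It lies on chromosome 17 from 23628315 to 23645269 on the minus strand and has 10 exons. Its counts were low: the WT libraries had 139 and 66, and the Adam17-/- libraries had 254, 191, and 249. These correspond to 7.27 and 3.57 CPM against 13.9, 12.6, and 13.2 CPM. The Adam17-/- libraries were almost level, while WT replicate 1 was above WT replicate 2 by more than the whole range of the Adam17-/- libraries. Mmp25 rose 2.43-fold (log2 fold change 1.28, SE 0.237, adjusted p = 0.00417, edgeR), from 5.42 ± 2.62 (SD, n = 2) to 13.2 ± 0.669 CPM (SD, n = 3). The size of the change depended on the WT libraries: it was 1.88 without WT replicate 1 and 0.86 without WT replicate 2, and it passed in both fits.

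Mmp12 encodes macrophage metalloelastase, which cuts elastin and is made mainly by macrophages. It lies on chromosome 9 from 7344397 to 7360461 on the plus strand and has 10 exons. It spread the most between libraries among the abundant members, with 490.5 and 315 CPM in the WT libraries and 436, 777, and 638 CPM in the Adam17-/- libraries. Adam17-/- replicate 1 lay between the WT libraries and the other two lay above them. The difference of 0.62 on the log2 scale (SE 0.235) did not pass the test (adjusted p = 0.0719, edgeR), with means of 403 ± 124 (SD, n = 2) and 617 ± 172 (SD, n = 3). It passed without WT replicate 1 (0.97, adjusted p = 0.00662) and without Adam17-/- replicate 1 (0.84, adjusted p = 0.0239), while without WT replicate 2 it was 0.33 (adjusted p = 0.248). Among the 13 alternative fits 6 passed, and the value lay between 0.33 and 0.97.

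Mmp8 encodes neutrophil collagenase, which cuts fibrillar collagen. It was among the most abundant members by CPM, at 913 and 1027 CPM in the WT libraries and 1176, 1024, and 1003 CPM in the Adam17-/- libraries. Of the 3 Adam17-/- libraries, 2 lay below WT replicate 2, and the difference of 0.14 (SE 0.101) did not pass (adjusted p = 0.318, edgeR). In the deposited FPKM, which is not TMM-scaled, the same libraries stood at 351 and 414 against 516, 445, and 435, without overlap. The change passed in 0 of 13 alternative fits.

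Mmp13 and Mmp19 overlapped between the groups. Mmp13, which encodes collagenase 3 and lies on chromosome 9 from 7272514 to 7283333, was at 39.4 and 50.9 CPM in the WT libraries and 32.7, 50.3, and 42.9 CPM in the Adam17-/- libraries (log2 fold change -0.11, SE 0.170, adjusted p = 0.657, edgeR). Mmp19, whose product cuts basement membrane proteins, was at 242 and 229 CPM against 202, 240.2, and 211 CPM (-0.11, SE 0.0931, adjusted p = 0.372, edgeR). Neither gene passed in any of the 13 alternative fits. Mmp19 lies on chromosome 10 from 128790910 to 128800827 and overlaps Tmem198b on the opposite strand. Its summed counts were up to 0.48 away from a whole number, against at most 0.01 for the other 9 members, so that its level is uncertain where reads could be divided among genes. Its longer transcript of 3411 bases held 63.0%, 69.7%, 62.9%, 70.4%, and 71.6% of the Mmp19 counts in WT replicates 1 and 2 and Adam17-/- replicates 1, 2, and 3, a range that overlapped between the groups.

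Mmp2 and Timp1 were the least covered members beside Mmp25. Mmp2 encodes gelatinase A, which is made chiefly by mesenchymal cells. It lies on chromosome 8 from 92827290 to 92853421. WT coculture gave 35 and 36 counts of it and Adam17-/- coculture gave 23, 26, and 42, or 1.83 and 1.95 CPM against 1.26, 1.71, and 2.22 CPM. The WT values lay within the Adam17-/- range (log2 fold change -0.12, SE 0.290, adjusted p = 0.773, edgeR). Timp1, an inhibitor that also binds pro-MMP9, lies on the X chromosome from 20870166 to 20874737 and within the gene Syn1 of the opposite strand. It had 92 and 54 counts against 75, 42, and 122 counts, or 4.81 and 2.92 CPM against 4.10, 2.76, and 6.46 CPM. Both the lowest and the highest library were Adam17-/- libraries (log2 fold change 0.21, SE 0.334, adjusted p = 0.651, edgeR). With these standard errors, a change of the size of that of Timp2 was not detectable in either gene.

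**Figure D2:**
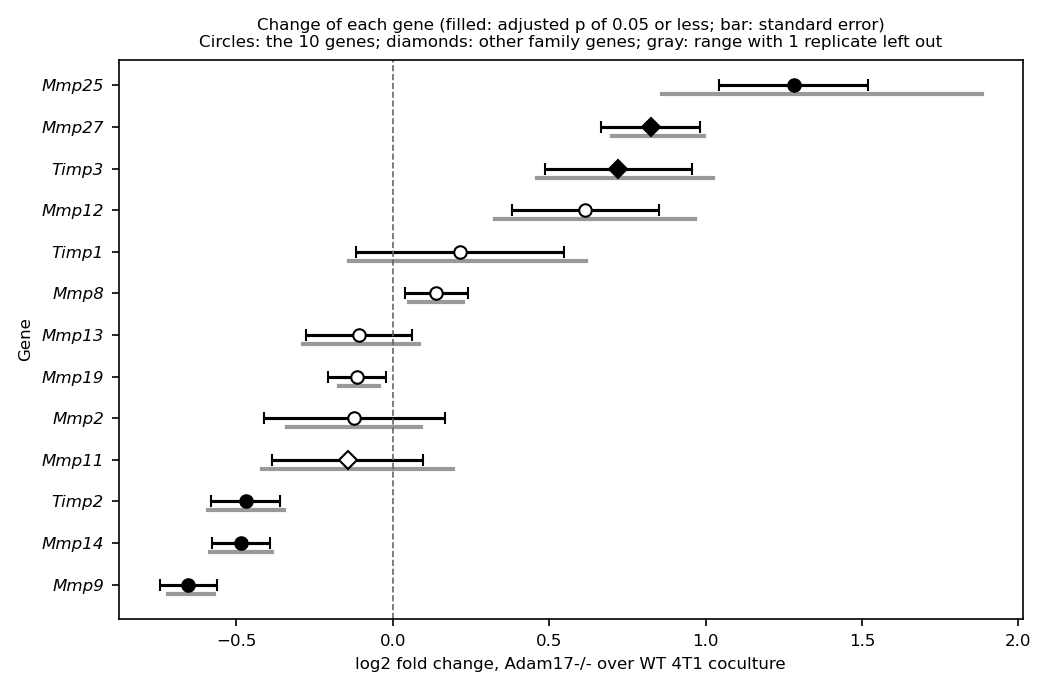
Fitted log2 fold change of each tested MMP and TIMP gene, Adam17-/- over WT 4T1 coculture, on the x axis, with the standard error as a black bar and the range over fits that leave out 1 library as a gray bar. Circles are the 10 members and diamonds other family genes, filled where the adjusted p was 0.05 or less, and they run from -0.65 for Mmp9 to 1.28 for Mmp25.

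The annotation holds 17 further mouse MMP and TIMP genes in the list used, of which 14 were listed in these libraries and 3 had enough counts to be tested. Mmp27, a little-studied MMP, was at 45.4 and 38.2 CPM in the WT libraries and 78.7, 85.7, and 58.0 CPM in the Adam17-/- libraries, without overlap. It rose by 0.82 on the log2 scale (SE 0.159, adjusted p = 0.00498, edgeR) and passed in 13 of 13 alternative fits. Timp3, the inhibitor that is bound to the matrix and that also inhibits ADAM17, was at 2.93 and 4.33 CPM against 4.597, 6.78, and 6.62 CPM. It rose by 0.72 (SE 0.235, adjusted p = 0.0423, edgeR), but did not pass without WT replicate 1 (0.46, adjusted p = 0.182), Adam17-/- replicate 2 (0.65, adjusted p = 0.122), or Adam17-/- replicate 3 (0.66, adjusted p = 0.127). Mmp11, or stromelysin 3, was at 5.55 and 3.63 CPM against 5.20, 3.75, and 3.49 CPM and did not pass (-0.14, SE 0.242, adjusted p = 0.676, edgeR). Of the genes not tested, Mmp1a, Mmp20, and Timp4 were not listed, Mmp1b, Mmp7, Mmp16, and Mmp24 had 3 counts or fewer in every library, and the rest had at most 16.

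The members spanned a wide range of levels, which were compared between genes in FPKM, a unit per transcript length. In the WT cocultures the order by mean FPKM was Mmp8 (383), Mmp14 (304), Mmp9 (111), Mmp12 (106), Mmp19 (67.1), Timp2 (37.9), Mmp13 (16.3), Timp1 (4.34), Mmp25 (1.40), and Mmp2 (0.590). Mmp9 and Mmp12 overlapped in that order, and all other neighbors were apart. In the Adam17-/- cocultures the order was Mmp8 (466), Mmp14 (241), Mmp12 (181), Mmp9 (77.9), Mmp19 (68.6), Timp2 (30.4), Mmp13 (16.7), Timp1 (5.56), Mmp25 (3.81), and Mmp2 (0.597). There Mmp9 overlapped with Mmp19, and Timp1 with Mmp25. Mmp8 ranked 118 and Mmp14 ranked 212 among all 17058 genes by mean FPKM over the 5 libraries, whereas Mmp2 ranked 11454.

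Read as shares of the summed FPKM of the 8 MMP members, Mmp14 and Mmp9 were apart between the groups and the other large members overlapped. The sum was 994 and 984 FPKM in the WT libraries and 1041, 1091, and 1033 FPKM in the Adam17-/- libraries. Mmp14 made up 32.0% and 29.5% of that sum with WT 4T1 cells and 22.1%, 22.7%, and 23.7% with Adam17-/- 4T1 cells. The share of Mmp9 was 11.4% and 11.0% against 8.07%, 6.48%, and 7.65%, again apart. The share of Mmp8, the largest, was 35.4% and 42.0% against 49.6%, 40.8%, and 42.1%, and that of Mmp12 was 12.8% and 8.67% against 12.4%, 20.9%, and 18.04%. Both overlapped, as did Mmp13 (1.26% to 1.90% over the 5 libraries) and Mmp19 (6.18% to 6.91%). Mmp8 and Mmp14 together held 67.4% and 71.5% against 71.7%, 63.5%, and 65.8%, so that these 2 collagen-cutting enzymes led in every library. The ratio of Mmp12 to Mmp9 was 1.13 and 0.789 with WT 4T1 cells and 1.53, 3.22, and 2.36 with Adam17-/- 4T1 cells, and Mmp12 exceeded Mmp9 in each of the latter. The shares, sums, and ratios were not tested, since an exact permutation test of 2 against 3 libraries cannot give a p-value under 0.1.

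Ratios were taken for enzyme and inhibitor pairs known to bind each other. The ratio of Mmp14 to Timp2 in FPKM was 7.90 and 8.15 with WT 4T1 cells and 7.69, 7.32, and 8.92 with Adam17-/- 4T1 cells. The ranges overlapped, with means of 8.02 ± 0.178 (SD, n = 2) and 7.97 ± 0.836 (SD, n = 3), as both genes were lower in the Adam17-/- cocultures. The ratio of Mmp9 to Timp1 was 21.3 and 32.0 against 16.2, 20.5, and 9.81, all of the latter lower, with 21.3 against 20.5 at the closest, and it rests on the 42 to 122 counts of Timp1. The ratio of the 8 MMPs to both TIMPs was 21.8 and 25.3 with WT 4T1 cells and 29.7, 29.3, and 29.1 with Adam17-/- 4T1 cells. Timp2 made up most of the TIMP sum, which was 45.6 and 39.0 FPKM against 35.05, 37.3, and 35.5 FPKM.

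**Figure D3:**
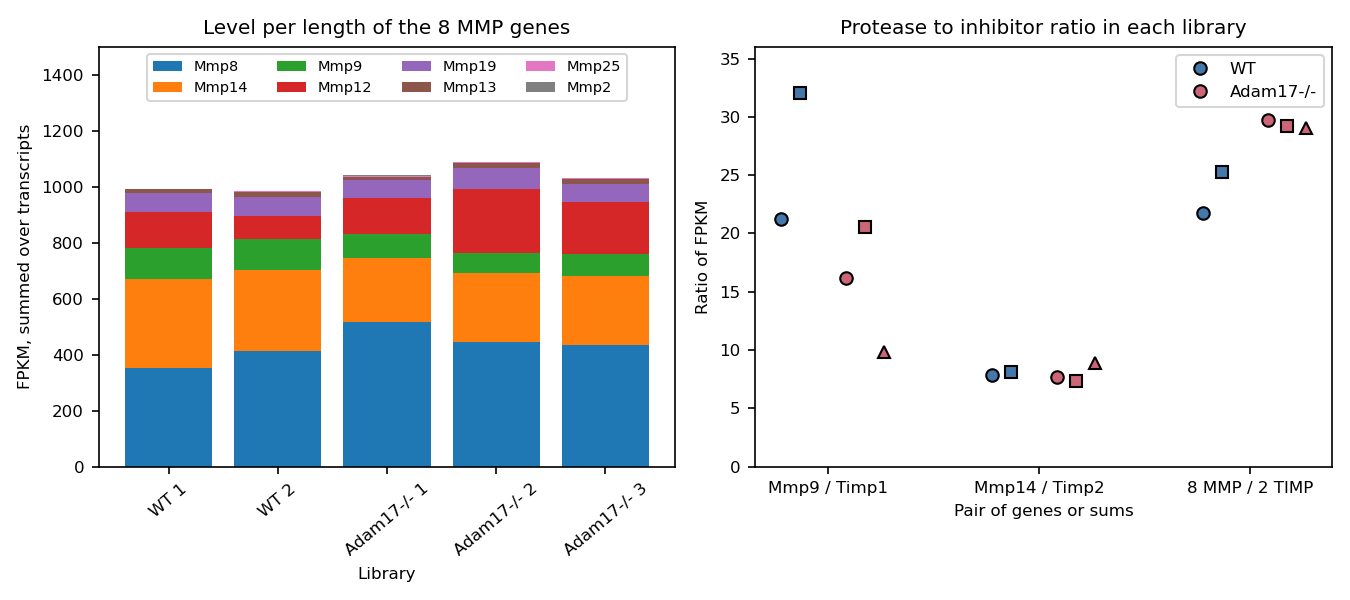
Left, the FPKM of the 8 MMP genes, not TMM-scaled, stacked for each library, which sums to between 984 and 1091. Right, the ratio of Mmp9 to Timp1, of Mmp14 to Timp2, and of the 8 MMPs to both TIMPs in each library, 1 point per library. The Mmp14 to Timp2 ratio lies between 7.32 and 8.92 in all 5 libraries, whereas the other ratios are apart between the groups.

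Mmp8, Mmp12, and Mmp13 belong to a cluster of 10 MMP genes on chromosome 9 that spans 427 kb. Of the 10 genes, 4 had over 100 counts in some library: Mmp13, Mmp12, Mmp8, and Mmp27. The other 6 had at most 16 counts in any library, and the highest was Mmp3, stromelysin 1, for which WT coculture gave 2 and 0 counts and Adam17-/- coculture gave 2, 16, and 4. The 4 abundant genes were interspersed with near-silent ones: Mmp12 and Mmp8 flank Mmp1b, Mmp3, Mmp1a, and Mmp10. Mmp8 (chromosome 9, 7558429 to 7568486) and Mmp27 (7571396 to 7581885) lie 2909 bases apart on the plus strand. Their log2 fold changes were 0.14 for Mmp8 and 0.82 for Mmp27, and the difference between these values was not tested. Reads of Mmp12 and Mmp1b, which overlap on opposite strands in GENCODE, could not be told apart if the counting ignored strand, but Mmp1b was listed with at most 1 count.

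**Figure D4:**
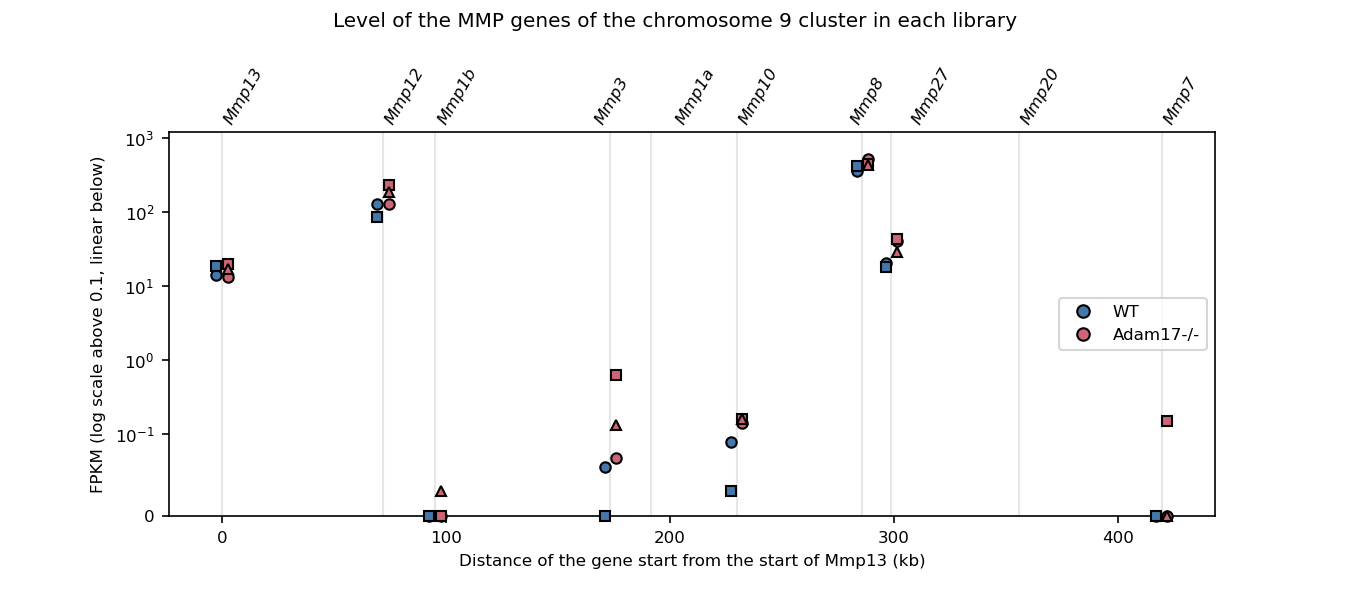
FPKM of each MMP gene of the chromosome 9 cluster in each library, on a log axis that is linear below 0.1, against the distance of the gene start from that of Mmp13 in kb, with WT in blue and Adam17-/- in red. Mmp13, Mmp12, Mmp8, and Mmp27 stand above 10 FPKM, the other genes are at 0.63 FPKM or lower, and Mmp1a and Mmp20, without a point, are not listed.

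For Mmp25, the member past the limit of 1, the tested genes most like it were found among 10823 genes with a mean FPKM of 1 or more. The measure was the root mean square difference in centered log2 CPM over the 5 libraries. The nearest were Ankrd22 (0.0676), Ccr7 (0.0878), and Mreg (0.0997). Over 5 libraries in 2 groups, genes that rise by a similar amount lie close on this measure. With the limit of 1, 422 of 12576 genes passed as higher. Which cells expressed Mmp25 was not tested. Ccr7, the chemokine receptor that leads mature dendritic cells to lymph nodes, was at 4.34 and 2.06 CPM in the WT libraries and 9.30, 6.97, and 7.73 CPM in the Adam17-/- libraries.

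Genes that activate, inhibit, or dock MMPs were taken as a list of 22, of which 16 were tested. Of these, 6 were higher, 7 were lower, and 3 did not pass, against 14.9% of all genes higher and 16.8% lower. The median log2 fold change was -0.03, and that of all genes was 0.01. Genes of the plasmin system, which activates proenzymes, were among the lower ones. Plaur, the urokinase receptor, fell from 242 ± 42.9 (SD, n = 2) to 122 ± 11.6 CPM (SD, n = 3; log2 fold change -0.99, adjusted p = 0.000684, edgeR). Serpinb2, an inhibitor of urokinase, fell from 21.1 ± 2.27 to 7.51 ± 0.215 CPM (-1.49, adjusted p = 0.000174, edgeR). Lrp1, a receptor that takes up MMPs and their complexes, fell by 0.54 (adjusted p = 0.00538), and Thbs1, a matrix protein that binds MMPs, fell by 0.39 (adjusted p = 0.0258). Lcn2, which binds MMP9 and is also a neutrophil granule protein, rose from 48.8 ± 10.2 to 115 ± 4.46 CPM (1.24, adjusted p = 0.000384, edgeR). Reck, a membrane-bound MMP inhibitor, rose by 1.91 (adjusted p = 0.00176) and Serpine2, a protease inhibitor, rose by 1.37 (adjusted p = 0.00331), both at under 6 CPM. Bsg, or EMMPRIN, did not pass (0.07, adjusted p = 0.613). Thus Mmp9 was lower while Lcn2, whose product binds it, was higher.

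Lists of other matrix-degrading proteases and of MMP substrates held both higher and lower genes, and 31.7% of all genes passed. Of 12 tested proteases 4 were higher, 3 lower, and 5 did not pass (median 0.34). Ctsb and Ctsl, lysosomal cathepsins, fell by 0.56 (adjusted p = 0.00999) and 0.51 (adjusted p = 0.00795), Adamts9, at only 6 to 47 counts a library, fell by 2.10 (adjusted p = 0.00178), and Elane, neutrophil elastase, rose by 1.54 (adjusted p = 0.0188). Ctss had a value of 0.24 (adjusted p = 0.0872) and Hpse of -0.04 (adjusted p = 0.697). Of 21 tested matrix substrates 5 were higher, 4 lower, and 12 did not pass (median 0.51), a share near that of all genes. Vcan, the proteoglycan versican, which MMPs cut, fell from 1074 ± 258 (SD, n = 2) to 440.0 ± 32.1 CPM (SD, n = 3; -1.29, adjusted p = 0.000421, edgeR), and Nid2, at only 4 to 40 counts, fell by 2.43 (adjusted p = 0.00139). Col3a1 rose by 1.58 (adjusted p = 0.00637) and Col6a3 by 2.06 (adjusted p = 0.00768), at 37 to 181 and 8 to 54 counts a library. Spp1 and Fn1 had the highest FPKM of the list. Spp1 did not pass (0.24, adjusted p = 0.191, edgeR). Fn1 fell from 3400 ± 771 (SD, n = 2) to 1852 ± 391 CPM (SD, n = 3; -0.88, adjusted p = 0.00676, edgeR).

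Marker lists of cells that make these MMPs were counted in the same way, beside 14.9% of all genes higher and 16.8% lower, and their part in the member results was not tested. Of 11 macrophage markers 9 were lower and 0 higher, with a summed level of 17939 to 18131 FPKM in the WT and 12483 to 13682 FPKM in the Adam17-/- libraries. Most of that sum was the single gene Lyz2, at 11923 and 12176 FPKM against 8116 to 8923 FPKM. Lyz2 fell by 0.65, Itgam by 0.64, and C1qc by 0.73 on the log2 scale, beside falls of 0.65 for Mmp9 and 0.49 for Mmp14. Csf1r, with a value of -0.29 (adjusted p = 0.0520, edgeR), and Mertk, with -0.06 (adjusted p = 0.572, edgeR), did not pass. Of 15 neutrophil markers, Lcn2 and Elane among them, 12 were higher and 0 lower, and their sum was 784 to 903 FPKM against 2666 to 2970 FPKM with no marker at 0. S100a9 rose from 194.5 ± 30.6 (SD, n = 2) to 646 ± 31.9 CPM (SD, n = 3), Ltf by 2.18, and Ly6g by 1.83 on the log2 scale. Of the members known from neutrophils, Mmp8 had a value of 0.14, Mmp9 fell by 0.65, and Mmp25 rose by 1.28.

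Of 9 tested markers of mature dendritic cells 6 were higher and 0 lower (35.8 to 39.1 FPKM against 76.1 to 86.7 FPKM), Ccr7 and Ccl22 among them. Socs2 was the largest part of that sum, at 17.9 and 21.95 FPKM in the WT and 40.25 to 44.6 FPKM in the Adam17-/- libraries. Flt3 (0.79, adjusted p = 0.0853, edgeR) and Cd209a (-0.58, adjusted p = 0.229, edgeR) were among those that did not pass. Of 6 tested osteoclast markers, a cell type rich in Mmp9 and Mmp14, 4 were higher and 1 lower (122 to 140.1 FPKM against 177 to 193 FPKM), with Calcr at 0. Most of that sum was Acp5, at 84.5 to 96.9 FPKM in the WT and 123 to 133 FPKM in the Adam17-/- libraries. The lower gene was Nfatc1 (-0.42, adjusted p = 0.00547, edgeR), and Ocstamp and Oscar, not tested, had at most 5 counts a library. Of 8 tested fibroblast and stroma markers, the usual source of Mmp2, 3 were higher and 0 lower (8.75 to 10.9 FPKM against 13.5 to 28.1 FPKM). The share that passed in either direction was near the 31.7% of all genes. All that passed were higher, beside 14.9% of all genes, and the list's median log2 fold change was 1.14. Of 11 mammary epithelial markers, which would mark 4T1 cells, 8 were at 3 counts or fewer in every library, and the sum was 2.90 to 3.33 FPKM against 3.15 to 3.92 FPKM. Most of that sum was Cdh1, E-cadherin, the only tested marker of the list, with 173 to 242 counts a library and a log2 fold change of 0.14 that did not pass (adjusted p = 0.422, edgeR).

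**Figure D5:**
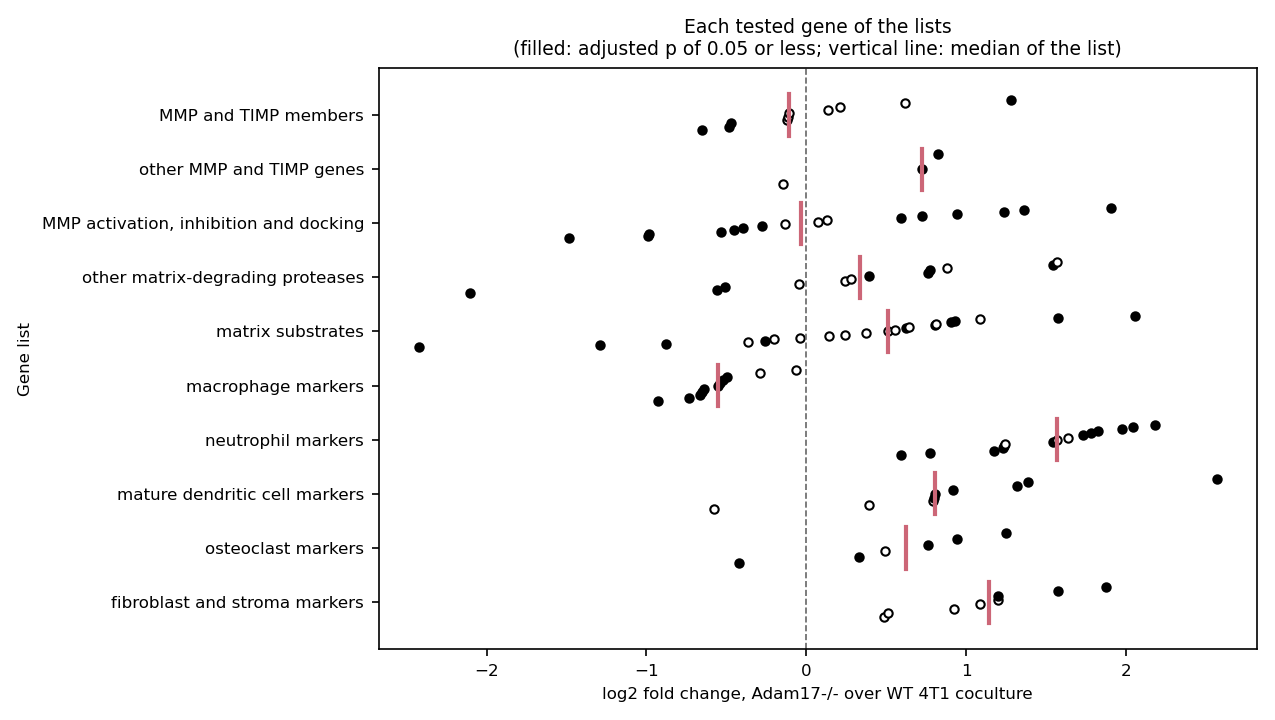
Log2 fold change, Adam17-/- over WT 4T1 coculture, of each tested gene of 10 lists, filled where the adjusted p was 0.05 or less, with the list's median as a vertical line. The members have a median of -0.11, the macrophage markers lie at a median of -0.55 and the neutrophil markers at 1.57.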

How the data were processed

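RNA of 5 BMDM samples (2 WT and 3 Adam17-/- 4T1 cocultures, grouped by the sample labels) was poly-A selected and sequenced. Per the study's methods and the submitters' processing notes, reads were aligned to the mouse genome (GRCm38, mm10) and quantified with Bowtie2 and RSEM; versions and the strand setting are not given in the sources used here. The files the authors deposited give, per transcript, an unnormalized expected count and an FPKM, which is scaled to length and depth. Transcripts not listed were taken as 0. Fold changes reported by the authors were not used.

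Values were summed per Entrez gene. The summed expected counts, rounded, entered the quasi-likelihood test of edgeR 4.0.16 (R 4.3.3; TMM, filterByExpr, glmQLFit, and glmQLFTest, no covariates) with Benjamini-Hochberg adjustment. A gene passed at an adjusted p of 0.05 or less. Levels are TMM-scaled CPM, as mean ± SD. The script was tested on simulated counts. Symbols matched 17015 of 17058 gene identifiers, and positions and promoters were taken from RefSeq, with overlaps from GENCODE, both on GRCm38. The members and gene lists were chosen with earlier results of these data known. Some markers outside the naming rule below are given where they limit the reading of a list. Named genes were the members, the tested other MMP and TIMP genes, Adam17, the 3 genes nearest to a member past a log2 fold change of 1, and from each other list, genes that passed with a log2 fold change of at least 1 in size or at most the 4 of highest FPKM; not all of these are given. Alternatives were DESeq2 1.42.0, other scaling factors, limma 3.58.1 on log2(FPKM + 0.1) and log2(FPKM + 1), other count filters, a fold limit, a replicate block, and each replicate left out.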

Additional observations from a re-analysis of the deposited data

How the results depend on the processing

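Mmp9, Mmp14, Mmp25, and Mmp27 kept their direction and passed in all 13 alternative fits. The number of members higher was 1 in the reported fit and 2 with limma on log2(FPKM + 0.1), limma on log2(FPKM + 1), library size only, and no filter on low counts, where Mmp12 joined Mmp25. With 1 replicate left out, 1 to 2 members were higher and 2 to 3 lower, and with a log2 fold limit of 1 as well, 0 were lower. Of all genes, 1869 were higher and 2114 lower. The counts were 3019 and 1077 with library size only, 2927 and 1016 with limma on log2(FPKM + 0.1), 2867 and 1011 with limma on log2(FPKM + 1), 1216 and 1126 with the replicate block, 422 and 109 with the fold limit, and 1089 to 2460 and 926 to 2940 with 1 replicate left out. The share of calls that were higher was 46.9%, against 57.9% with upper quartile factors, 73.7% with library size only, and 74.2% and 73.9% with limma. Over all genes the median was 0.01, against 0.07 with upper quartile factors, 0.16 with library size only, and 0.15 and 0.11 with limma, where scaling and model both differ.

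Timp2 no longer passed with limma on log2(FPKM + 0.1) (adjusted p = 0.0517) or log2(FPKM + 1) (adjusted p = 0.0532) or with the replicate block (-0.40, adjusted p = 0.0723), and Timp3 did not with the block (0.65, adjusted p = 0.0575). Signs reversed only for genes that never passed, in 18 values. With library size only and with limma at pseudocounts of 0.1 and 1, in that order, Mmp13 was 0.035, 0.031, and 0.030, Mmp19 was 0.033, 0.028, and 0.028, and Mmp11 was 0.0074, 0.017, and 0.010, all smaller than the shift of the median. Mmp2 was 0.023 with library size only and 0.0015 with limma at a pseudocount of 1, and Timp1 was -0.16 with the replicate block. With 1 replicate left out, Mmp2 lay between -0.34 and 0.089, Mmp13 between -0.29 and 0.083, Mmp11 between -0.42 and 0.19, and Timp1 between -0.14 and 0.62. Their causes were not tested. The labels do not say that a replicate number marks a shared mouse or day, and the deviations of same-numbered libraries correlated at -0.12 and -0.05, so the block pairs libraries that share a number only. Where 1 WT library is left, it is assumed to vary like the Adam17-/- libraries. Depth limits Mmp2, Timp1, Mmp25, and Timp3, which had 23 to 254 counts a library.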
